A study of Mus musculus with 16 samples.

Results

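The response to IL-1β in butyrate-treated islets was read from 8 of the 16 libraries of the series, 4 of mouse pancreatic islets cultured with butyrate alone and 4 of islets cultured with butyrate and IL-1β together. The 8 libraries were chosen by their labels, and no expression value entered the choice. All islets came from male C57BL/6JRj mice of 12 weeks without genetic changes (the substrain is C57BL/6NRj in the study's methods). Each library was made from 500 islets, by the study's account pooled from several mice, and kept for 10 days in medium with human serum. Both groups received 0.2 mM sodium butyrate, and the second also received recombinant mouse IL-1β at 50 pg/ml. The other 8 libraries, 4 of untreated control islets and 4 of islets given the same IL-1β without butyrate, share no library with this comparison and were set beside it to test whether a gene responded differently when butyrate was absent. Islets mix several endocrine cell types with resident macrophages, vessels and some exocrine tissue, so the values below are sums over these cells, in which fewer cells of a type and less RNA per cell cannot be told apart.

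IL-1β is an inflammatory cytokine that binds the IL-1 receptor, which is abundant on beta cells. The bound receptor recruits the adaptor MyD88 and the IRAK kinases, which activate the transcription factor NF-κB and stress kinases. NF-κB in turn raises acute phase proteins, chemokines and inhibitors that feed back on the pathway. In beta cells, prolonged exposure is known to lower insulin production and the factors that keep the cells mature. Butyrate, which gut bacteria make when they ferment fibre, inhibits histone deacetylases and activates the receptors FFAR2 and FFAR3.

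The 8 libraries held 19713325 to 23688084 counts. *Ins2*, one of the mouse insulin genes, took 14.4 to 16.8% of the counts of the butyrate libraries and 7.98 to 9.97% of those with IL-1β added, so levels are given as CPM, counts in proportion to library sizes that were scaled by the TMM method. The TMM factors were 0.949 to 0.986 in the butyrate group and 1.005 to 1.056 with IL-1β added. The label of islet tissue held, as *Ins2*, *Gcg* (glucagon), *Sst* (somatostatin) and *Ppy* (pancreatic polypeptide) reached at least 75760, 17930, 2271 and 1354 CPM in each of the 8 libraries. The 7 exocrine acinar genes that could be tested summed to 20.4 to 29.1 CPM with butyrate and 19.5 to 27.9 CPM with IL-1β added.

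Of 52636 genes in the table, 18587 had enough counts to be tested with the edgeR quasi-likelihood test. A gene was called when its Benjamini-Hochberg adjusted p was under 0.01, the threshold of the study, and every adjusted p below comes from this test. IL-1β changed 2747 genes of butyrate-treated islets (14.8% of those tested), of which 1844 rose (9.92%) and 903 fell (4.86%). The rises were larger than the falls. Among the rises, 534 were at least 2-fold and 42 were at least 16-fold, against 77 and 0 of the falls, and the median called change was 0.56 (log2) upwards and -0.33 downwards. Changes under 0.5 on the log2 scale made up 1477 of the calls. The split between directions depends on how the libraries are scaled to each other. With upper-quartile scaling 1612 genes rose and 1420 fell, and with library size as the only scaling 3153 rose and 451 fell, against 67.1% of calls upwards under TMM.

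**Figure D1:**
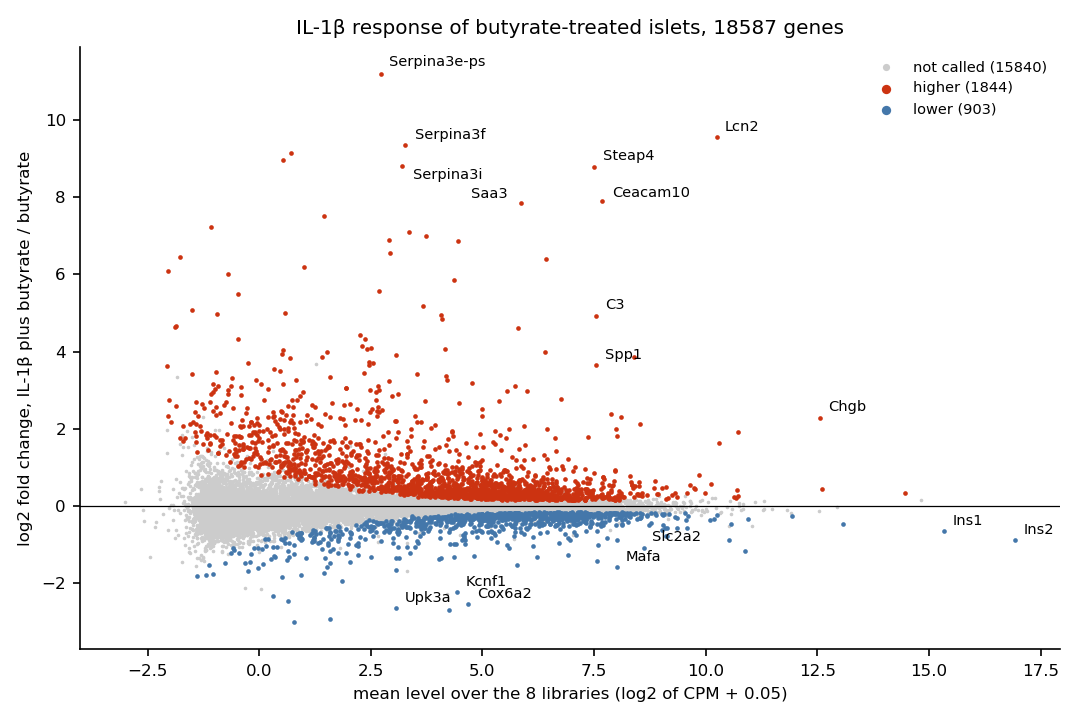
Each point is 1 of 18587 genes, with its mean level over the 8 libraries (log2 of CPM + 0.05) on the x axis and the log2 fold change of IL-1β plus butyrate over butyrate on the y axis. Red and blue points are the 1844 genes called higher and the 903 called lower, and the rises reach much further from 0 than the falls, as for *Lcn2* at 9.56. Values of genes without counts in one group, such as *Serpina3e-ps*, depend on the prior count of the fit.

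Promoters of 5 of the genes that rose most, *Lcn2*, *Serpina3f*, *Serpina3i*, *Steap4* and *Ceacam10*, were read from the RefSeq table of mouse promoters (build GRCm38.p6, 250 bases before to 50 bases after the start of transcription). They were searched on both strands for the κB consensus bound by NF-κB, for an ISRE-like motif of interferon regulatory factors, 2 boxes of GAAA set 2 bases apart, and for a STAT-like motif (TTCNNNGAA). The 3 promoters that held matches are shown because 2 of them belong to neighbouring paralogs that rose together from almost no counts, and capitals mark the matches. They lie at chr12:104262872-104263171 (plus strand) for *Serpina3i*, at chr12:104214294-104214593 (plus strand) for *Serpina3f* and at chr5:7960222-7960521 (plus strand) for *Steap4*.
Serpina3i: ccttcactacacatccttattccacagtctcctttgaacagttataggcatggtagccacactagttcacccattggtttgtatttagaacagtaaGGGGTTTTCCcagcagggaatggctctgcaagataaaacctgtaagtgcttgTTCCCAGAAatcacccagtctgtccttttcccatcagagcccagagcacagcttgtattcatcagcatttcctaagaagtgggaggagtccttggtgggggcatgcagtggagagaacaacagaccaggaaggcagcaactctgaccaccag
Serpina3f: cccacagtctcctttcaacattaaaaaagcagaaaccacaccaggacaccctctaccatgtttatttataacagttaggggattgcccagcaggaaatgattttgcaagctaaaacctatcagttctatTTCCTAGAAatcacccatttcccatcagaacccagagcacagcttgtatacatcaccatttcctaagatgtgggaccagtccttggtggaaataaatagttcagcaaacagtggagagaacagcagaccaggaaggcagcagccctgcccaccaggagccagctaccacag
Steap4: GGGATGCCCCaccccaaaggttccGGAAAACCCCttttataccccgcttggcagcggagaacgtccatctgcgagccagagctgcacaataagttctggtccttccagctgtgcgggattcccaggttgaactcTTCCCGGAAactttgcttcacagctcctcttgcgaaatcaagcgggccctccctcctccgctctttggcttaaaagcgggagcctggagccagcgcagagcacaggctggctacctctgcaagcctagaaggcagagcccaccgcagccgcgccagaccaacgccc

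*Serpina3i* held 1 match to the κB consensus, which began 154 bases before the start of transcription, and 1 STAT-like match. *Serpina3f* held the STAT-like match and none to the κB consensus. Aligned to each other, these promoters were identical at 224 of 269 aligned positions (83.3%), and at the place of the κB match of *Serpina3i*, GGGGTTTTCC, *Serpina3f* differed by T5A and T8G, counted from 1 at the 5′ end of that match. *Steap4* held 2 matches to the κB consensus and 1 STAT-like match. The windows of *Lcn2* and *Ceacam10* held no match to these 3 motifs, which says only that these letters are not in these windows. Of all 32851 promoters, 8.46% held the κB consensus, against 10.2% of the promoters of genes tested, 12.8% of those of genes that rose, 11.3% of those of genes that fell and 24.2% (8 of 33 promoters, of 29 genes) of those of genes that rose at least 16-fold. The ISRE-like motif was in 3.44% of all promoters and 3.01% of those of genes tested. It was in 4.31% of those of genes that rose, 2.15% of those that fell and 6.06% (2 of 33) at 16-fold or more. The STAT-like motif was in 8.30% of all promoters and 6.99% of those of genes tested. It was in 9.22% of those of genes that rose, 4.84% of those that fell and 18.2% (6 of 33) at 16-fold or more. A match is a description of the sequence and not evidence of binding.

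The genes described as the 12 largest rises and the largest falls had an average log2 CPM of at least 1 over the 8 libraries, groups that did not overlap and a symbol other than that of a predicted gene. The largest rises by fold were proteins of the acute phase and of antimicrobial defence. *Lcn2* (ENSMUSG00000026822, chromosome 2, 32384633 to 32388252, minus strand), which encodes the iron-scavenging protein lipocalin 2, had 8.34, 1.38, 0.104 and 3.14 CPM in the 4 butyrate libraries, in the order of their replicate numbers, and 1661, 2641, 2178 and 3238 CPM with IL-1β added. The groups did not overlap, and butyrate replicate 1 was the highest of its group. The log2 fold change was 9.56 ± 0.55 (SE; adjusted p = 3.1e-08). *Steap4* (chromosome 5, 7960457 to 7982213, plus strand), a metalloreductase of iron and copper, stood at 2.86, 0.133, 0.209 and 0.215 CPM with butyrate and at 392, 408, 302 and 349.8 CPM with IL-1β added, a log2 fold change of 8.79 ± 0.35 (adjusted p = 5.3e-10). Butyrate replicate 1 was again the highest of its group and far below every library with IL-1β. *Saa3*, serum amyloid A3, an apolipoprotein of the acute phase, had 0.954, 0.577, 0.261 and 0.215 CPM against 131, 129.6, 83.7 and 121 CPM (log2 fold change 7.86 ± 0.31, adjusted p = 5.1e-10). *Ceacam10*, a secreted adhesion molecule of the CEA family, rose from 1.41, 1.64, 2.04 and 1.68 CPM to 249.6, 438, 494 and 444 CPM (log2 fold change 7.91 ± 0.39, adjusted p = 5.7e-09).

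Relatives of the protease inhibitor antichymotrypsin, encoded by the *Serpina3* cluster on chromosome 12, were close to silent without IL-1β. *Serpina3i* had 0.151, 0, 0 and 0 CPM in the butyrate libraries, which were 3 counts in all, and 18.2, 19.4, 18.7 and 17.1 CPM with IL-1β, a ratio of 519.6 (95% interval for counting error only, 177.5 to 2522; adjusted p = 2e-20). *Serpina3f* had 0.1004, 0, 0 and 0 CPM and 17.6, 25.04, 14.8 and 18.9 CPM, a ratio of 810.3 (interval 224.0 to 6696; adjusted p = 4e-13). The pseudogene *Serpina3e-ps* had no count in any butyrate library and 12.3, 16.3, 11.8 and 12.04 CPM with IL-1β, at least 371-fold higher when the butyrate group is set to a floor of 3 counts over its libraries. These paralogs are close in sequence, so reads may be split between them by the counting, and the values of single members are uncertain.

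Of the other genes among the 12 largest rises, *Il1f6*, which encodes the IL-1 family cytokine IL-36α, had 0.0502, 0, 0 and 0.04301 CPM with butyrate and 4.304, 6.49, 4.29 and 6.26 CPM with IL-1β, a ratio of 225.0 (interval 61.95 to 1863). *Slc6a14*, an amino acid transporter of epithelia, had 0.502, 0, 0.0522 and 0.04301 CPM against 8.85, 28.1, 21.6 and 23.02 CPM (log2 fold change 7.11 ± 0.61, adjusted p = 1.5e-06). *Vnn3*, a pantetheinase, *Slpi*, an inhibitor of leukocyte proteases, and *Tgm3*, a transglutaminase, rose by 7.002, 6.90 and 6.86 on the log2 scale (adjusted p = 1.7e-15, 1.4e-06 and 3.6e-09). Within the IL-1β group *Slpi* spread from 8.12 to 22.1 CPM, and *Vnn3* and *Tgm3* spread less, from 22.9 to 30.7 and from 31.2 to 49.7 CPM. The choice of these 12 genes required groups that did not overlap.

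**Figure D2:**
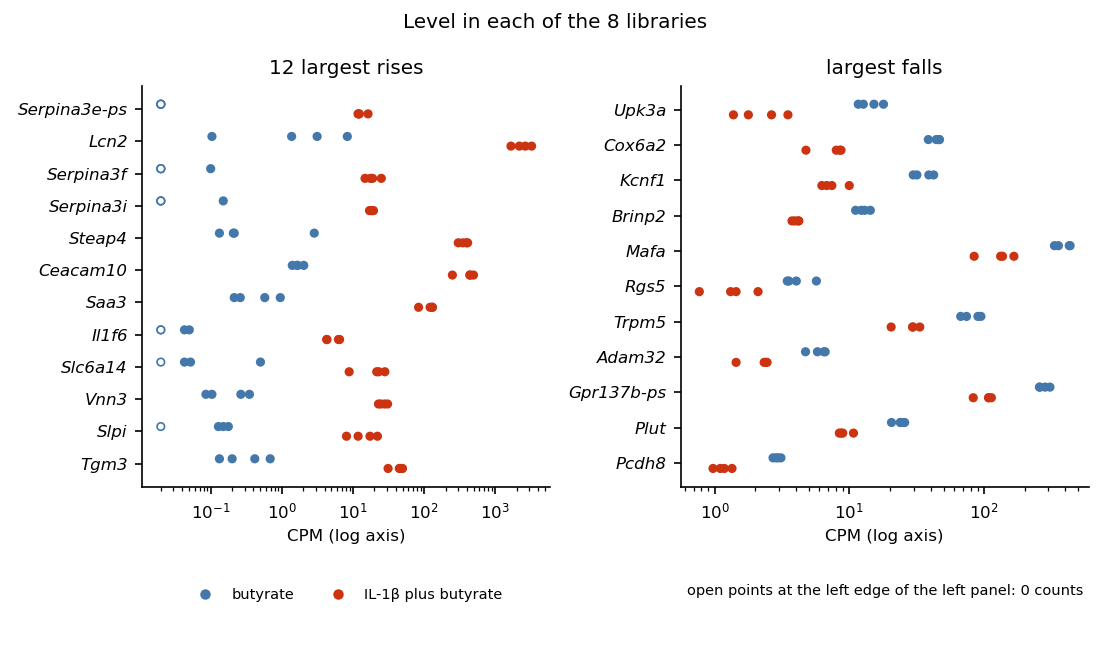
Level of the 12 largest rises (left) and the largest falls (right) in each of the 8 libraries, with CPM on a log axis, blue for butyrate and red for IL-1β plus butyrate. Open points at the left edge of the left panel are libraries with 0 counts, and the rule that chose these genes left no overlap between red and blue points.

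The acute phase list as a whole had 43 genes, of which 24 could be tested. Of these, 21 rose and 0 fell, with a median log2 fold change of 5.71 beside -0.009 over all genes tested. A gene passed the filter with enough counts in the libraries of a single condition. Members close to silent without IL-1β could thus be tested only where IL-1β had raised them, which favours rises in this share and median. The same filter applied to every list below, the chemokines among them. *Cp*, ceruloplasmin, a copper-carrying ferroxidase of plasma, had 1.96, 1.82, 2.09 and 2.15 CPM with butyrate and 159, 213, 125 and 183 CPM with IL-1β (log2 fold change 6.40 ± 0.24, adjusted p = 2e-10). The lowest library with IL-1β was far above the highest with butyrate alone. The summed level of the 24 genes was 7.42 to 25.4 CPM with butyrate and 2447 to 4063 CPM with IL-1β, most of it *Lcn2*.

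Among receptors and adaptors of the IL-1 pathway, 6 of 23 genes tested rose and 2 fell (median log2 fold change 0.26). *Irak3*, an inactive kinase that brakes the receptor complex, had 3.77, 4.75, 3.87 and 4.301 CPM with butyrate and 9.096, 10.3, 8.54 and 8.81 CPM with IL-1β (log2 fold change 1.13 ± 0.10, adjusted p = 1.1e-09). Its relatives *Irak2* and *Irak4* rose less, by 0.52 and 0.51 (adjusted p = 0.00015 and 0.00045). *Il18rap*, the accessory chain of the receptor for the related cytokine IL-18, had 1 count in the 4 butyrate libraries and 0.934, 1.103, 1.31 and 1.11 CPM with IL-1β, a ratio of 94.25 (interval 16.54 to 3759). *Il18r1*, the other chain of that receptor, also rose (log2 fold change 0.98 ± 0.20, adjusted p = 0.00056). *Il1b* itself had 0.904, 0.755, 0.575 and 0.645 CPM against 1.38, 1.53, 2.15 and 2.07 CPM (log2 fold change 1.29 ± 0.25, adjusted p = 0.00026), a low level in both groups. The 2 falls were small. The ubiquitin ligase *Traf6* changed by -0.24 ± 0.05 and the kinase *Irak1* by -0.21 ± 0.05 (adjusted p = 0.001 and 0.0016), and with library size as the only scaling neither was called (adjusted p = 0.034 and 0.096). Without butyrate replicate 4 the adjusted p of *Irak1* was 0.0102.

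NF-κB subunits and the inhibitors that NF-κB induces rose together, 12 of 21 tested with 0 lower (median 0.41). The strongest was *Zc3h12a*, which encodes the ribonuclease Regnase-1 that degrades inflammatory mRNAs, with 1.36, 0.799, 0.993 and 1.46 CPM against 35.1, 35.01, 31.97 and 30.6 CPM (log2 fold change 4.84 ± 0.11, adjusted p = 5.8e-22). *Nfkbiz*, a nuclear co-activator of NF-κB, went from 25.7, 24.96, 21.6 and 21.4 CPM to 102, 106, 89.6 and 98.95 CPM (log2 fold change 2.08 ± 0.06, adjusted p = 1.9e-19). *Bcl3*, a nuclear IκB protein, *Tnfaip3*, which encodes the ubiquitin-editing enzyme A20, and its partner *Tnip1* rose by 1.94, 1.81 and 1.77 on the log2 scale. Replicates of these genes were tight, and for *Tnip1* the groups stood at 20.9 ± 0.716 and 71.4 ± 1.01 CPM (SD, n = 4 each).

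Chemokines rose in smaller number. Of 33 on the list 17 could be tested, of which 6 rose and 1 fell (median 0.24). *Ccl28*, a chemokine of mucosal epithelia, was the most abundant of the risers, with 10.2, 10.97, 8.94 and 10.02 CPM against 158, 196, 137 and 149 CPM (log2 fold change 3.99 ± 0.10, adjusted p = 7.7e-16). *Ccl20*, which draws cells that carry CCR6, had no count in any butyrate library and 2.96, 4.58, 2.58 and 2.65 CPM with IL-1β, at least 90.9-fold higher against a floor of 3 counts over the group. *Cxcl1*, which attracts neutrophils, had 1.21, 0.311, 0.209 and 0.258 CPM and 8.04, 13.6, 8.63 and 8.86 CPM (log2 fold change 4.32 ± 0.30, adjusted p = 2.3e-08), and *Cxcl16* rose by 1.59 (adjusted p = 1.6e-10). *Cxcl13*, which attracts B cells, fell by 1.75 on the log2 scale (adjusted p = 0.00035) at a level under 1 CPM.

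Complement genes rose in 14 of 28 tested cases and fell in 2 (median 0.60). *C3*, the component on which all complement pathways converge, had 10.6, 11.2, 12.3 and 13.4 CPM with butyrate and 292, 419.9, 345 and 396 CPM with IL-1β (log2 fold change 4.93 ± 0.20, adjusted p = 4.7e-10). *Serping1*, the C1 inhibitor, went from 27.7 ± 2.24 to 190.2 ± 29.04 CPM (SD, n = 4 each; log2 fold change 2.78 ± 0.13, adjusted p = 8.2e-10). *Cfb*, factor B, rose by 6.56, but 79.5% of its exonic length overlaps an annotated read-through gene and its counts cannot be assigned with certainty. The falls were *C8b*, a subunit of the membrane attack complex (37.2 ± 1.35 to 21.3 ± 2.34 CPM, adjusted p = 3.5e-09), and *C1qa* (77.6 ± 10.5 to 51.2 ± 5.53 CPM, adjusted p = 0.0026). The other C1q chains moved the other way, *C1qb* by 2.58 ± 0.32 and *C1qc* by 2.43 ± 0.30 (adjusted p = 3.9e-05 and 3.2e-05), at lower levels of 1.78 ± 0.4199 and 1.98 ± 0.177 CPM with butyrate. Why the level of *C1qa* was so far above theirs was not tested, so its fall is not read as a fall of C1q.

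Interferon-inducible genes were also higher, although no interferon was added. Of 15 GTPases that defend cells against intracellular microbes, 9 rose and 0 fell (median 1.94). *Gbp8* had 2.26, 1.999, 1.99 and 1.68 CPM with butyrate and 19.3, 21.6, 18.6 and 24.7 CPM with IL-1β (log2 fold change 3.41 ± 0.12, adjusted p = 1.7e-18), and *Gbp9* and *Gbp4* rose by 3.73 and 3.23 (adjusted p = 9.5e-15 and 2.5e-07). The guanylate-binding proteins are close paralogs and may share reads. Of 48 other genes of interferon signalling, 25 rose and 1 fell (median 0.44). *Irf1*, a transcription factor, went from 32.02 ± 0.707 to 59.8 ± 1.696 CPM (SD, n = 4 each; adjusted p = 1.2e-14). *Ifngr2*, a chain of the interferon-γ receptor, and *Parp14*, an ADP-ribosyltransferase, rose by 1.29 and 1.03 (adjusted p = 2.5e-13 and 8.2e-10). The gene that fell was *Rsad2*, the antiviral enzyme viperin (log2 fold change -0.48 ± 0.09, adjusted p = 0.00012).

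In the IL-6 family, 6 of 16 genes rose and 3 fell (median 0.21). The cytokine *Lif* had 1.21, 1.55, 1.62 and 2.41 CPM against 9.91, 9.34, 9.15 and 9.101 CPM (log2 fold change 2.45 ± 0.13, adjusted p = 2.5e-14). *Stat3*, the transcription factor that LIF and IL-6 activate, went from 182, 180.2, 158 and 166 CPM to 335, 332, 315 and 327 CPM (log2 fold change 0.93 ± 0.05, adjusted p = 3.4e-14), and its feedback inhibitor *Socs3* rose by 1.28 (adjusted p = 1e-13). The receptor chains for LIF fell, *Lifr* by 0.72 and *Il6st* by 0.34 on the log2 scale (adjusted p = 1.2e-10 and 6.4e-06), as did the kinase *Pim3* (log2 fold change -0.33 ± 0.06, adjusted p = 0.00029). The ligand thus rose while both of its receptor chains were lower. Of 23 genes of the TNF family and its adaptors, 13 rose and 1 fell (median 0.38). *Birc3*, an inhibitor of apoptosis that NF-κB induces, had 11.5, 10.6, 10.8 and 10.8 CPM and 73.95, 77.5, 63.5 and 70.1 CPM (log2 fold change 2.71 ± 0.08, adjusted p = 3.3e-19). The death ligand *Tnfsf10*, or TRAIL, and the TNF receptor *Tnfrsf1a* rose by 1.74 and 0.71 (adjusted p = 4.4e-14 and 8.7e-09). The gene that fell, *Traf5*, was called with an adjusted p of 0.0039 and lost its call in 6 of 22 alternatives.

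Of the enzymes of nitric oxide, prostaglandin and superoxide chemistry, 8 of 24 rose and 0 fell (median 0.55). *Ptgs1*, the constitutive cyclooxygenase, had 0.352, 0.355, 0.522 and 0.602 CPM against 1.62, 1.91, 2.28 and 3.08 CPM (log2 fold change 2.25 ± 0.29, adjusted p = 9.1e-07). *Ptger4*, a receptor for prostaglandin E2, and *Ass1*, which regenerates arginine for nitric oxide synthesis, rose by 1.71 and 1.20 (adjusted p = 3.6e-08 and 1.6e-05). *Cyba*, a subunit of the phagocyte NADPH oxidase, rose by 1.88 (adjusted p = 5.3e-06). *Nos2* (ENSMUSG00000020826, chromosome 11, 78920787 to 78960254, plus strand), the inducible nitric oxide synthase, had 0.502, 0.0888, 0.0522 and 0.172 CPM with butyrate and 0.122, 0.382, 0.131 and 0.193 CPM with IL-1β added. These groups overlapped (log2 fold change 0.04 ± 0.59, adjusted p = 0.98). The inducible cyclooxygenase *Ptgs2*, named after its values were seen, had a log2 fold change of 0.51 ± 0.38 (adjusted p = 0.4), so neither inducible enzyme was called in the presence of butyrate. For both genes butyrate replicate 1 was the highest of its group, at 1.46 CPM for *Ptgs2*, which lowers both fold changes. The missing calls therefore do not show that IL-1β had no effect on them.

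Genes of antigen processing were among those that rose. All 5 genes of the immunoproteasome, the form of the proteasome that cuts peptides for MHC class I, were higher (median 0.82), led by the catalytic subunit *Psmb10*, with 5.42, 4.09, 4.598 and 4.82 CPM against 15.5, 15.6, 13.7 and 15.8 CPM (log2 fold change 1.68 ± 0.09, adjusted p = 8.9e-14). Of the 14 constitutive subunits of the 20S core, 1 rose, *Psma6*, by 0.31 (adjusted p = 0.00024). With library size as the only scaling 8 of these 14 were called higher. Of 18 genes of MHC class I presentation, 14 rose and 0 fell (median 0.65). *B2m*, the light chain of class I molecules, went from 17.8 ± 0.451 to 39.5 ± 3.396 CPM (SD, n = 4 each; adjusted p = 1.4e-12), and the peptide-trimming enzyme *Erap1* and the loading factor *Tapbp* rose by 0.89 and 0.97 (adjusted p = 6.6e-15 and 1.9e-14).

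MHC class II genes, which belong to professional antigen-presenting cells, rose in 7 of 8 tested cases (median 2.996). *Cd74*, the invariant chain, had 1.66, 1.69, 2.09 and 2.495 CPM with butyrate and 21.03, 30.1, 36.4 and 48.1 CPM with IL-1β (log2 fold change 4.08 ± 0.41, adjusted p = 7.9e-06), and *H2-Aa* and *H2-Eb1* rose by 4.08 and 3.65 (adjusted p = 2.3e-05 and 2.2e-05). *Ciita*, the master regulator of the class II genes, was not called (1.54 ± 0.348 and 2.16 ± 0.1998 CPM, log2 fold change 0.48 ± 0.19, adjusted p = 0.078). Macrophage markers moved with them. Of 14 tested, 13 rose and 1 fell (median 1.91), the exception being *C1qa*, and the untested member *Cd163* had 9 counts with butyrate and 4 with IL-1β. Whether the counts of *C1qa* came from macrophages was not tested. The summed level of the 14 markers was 88.9 to 110 CPM with butyrate and 105 to 147 CPM with IL-1β. *C1qa* made up most of that sum, and without it the other 13, a split made after the values were seen, summed to 17.9 to 28.3 CPM and to 47.1, 65.7, 91.4 and 101.6 CPM in IL-1β replicates 1 to 4. The class II sum was 9.90 to 13.7 CPM with butyrate and 56.4, 77.1, 92.8 and 119.3 CPM in the same IL-1β replicates. Both sums ranked these 4 libraries alike, but not those of other groups. In butyrate replicates 1 to 4 the 13 markers summed to 17.9, 18.5, 28.3 and 22.7 CPM and class II to 10.35, 9.90, 11.9 and 13.7 CPM. With IL-1β alone these sums were 103.9, 136.4, 142.3 and 177.8 CPM and 103.6, 82.8, 83.6 and 155.8 CPM. Whether more macrophages, or more of these mRNAs per macrophage, lay behind the rise was not tested.

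Markers of other leukocytes stayed near 0. *Cd3e* and *Cd3g*, chains of the T cell receptor complex, had 1.49 ± 0.302 and 0.627 ± 0.0936 CPM with IL-1β (adjusted p = 0.33 and 0.79), *Cd3d* and the neutrophil gene *Ly6g* had no count in the 8 libraries, and *S100a8* had 1 count with butyrate and 4 with IL-1β. The kinase *Lck* was the T cell list's single call, from 2.304 ± 0.182 to 3.96 ± 0.241 CPM (adjusted p = 0.00031). Adhesion molecules of inflamed tissue rose in 5 of 8 cases, led by *Icam1*, which binds leukocyte integrins, with 1.26, 0.267, 0.836 and 0.4301 CPM against 26.2, 26.5, 21.2 and 25.3 CPM (log2 fold change 5.19 ± 0.18, adjusted p = 2.2e-15). *Vcam1* was not called (2.43 ± 0.483 and 2.095 ± 0.272 CPM, adjusted p = 0.56). Of 21 genes of the inflammasome and of cell death, 10 rose and 0 fell (median 0.32). They included the inflammatory caspase *Casp4*, higher by 2.59, and the necroptosis effector *Mlkl*, higher by 1.29 (adjusted p = 7.5e-09 and 5.9e-07).

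**Figure D3:**
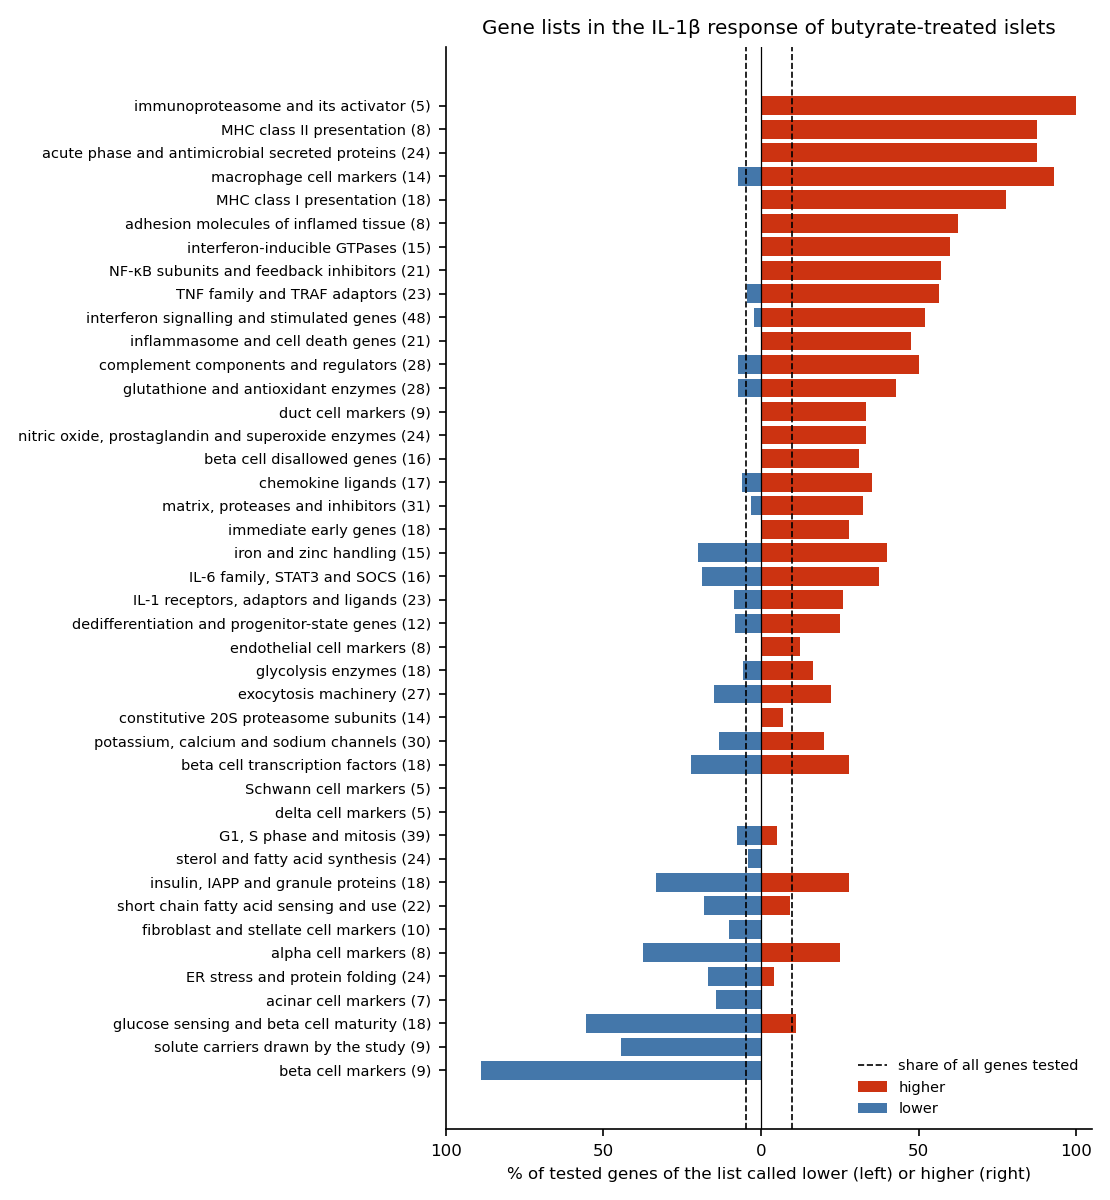
Each bar pair is 1 gene list with at least 5 tested genes (number in brackets), with the percent of its tested genes called higher to the right (red) and lower to the left (blue). The dashed lines mark the shares over all genes tested, 9.92% higher and 4.86% lower, and the immune lists reach furthest right while beta cell markers, with 8 of 9 lower, reach furthest left. Lists may include genes that passed the filter on counts only through libraries with IL-1β.

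Markers of beta cells fell. Of 9 beta cell markers, 8 fell and 0 rose (median log2 fold change -0.65, beside -0.009 over all genes). *Ins2* had 163600, 161000, 176300 and 146600 CPM in the butyrate libraries and 86980, 99430, 91610 and 75760 CPM with IL-1β (log2 fold change -0.87 ± 0.08, adjusted p = 1.1e-08), and *Ins1* had 54630, 47450, 54490 and 47310 CPM and 32500, 34470, 33300 and 29520 CPM (log2 fold change -0.65 ± 0.07, adjusted p = 3.8e-08). In both genes the groups were apart, although both insulin genes are close copies and may exchange reads. *Mafa* (ENSMUSG00000047591, chromosome 15, 75745490 to 75748228, minus strand), a transcription factor of mature beta cells that drives insulin transcription, had 434, 428, 332 and 356 CPM with butyrate and 166, 132, 137 and 84.3 CPM with IL-1β. With IL-1β, replicate 4 was the lowest (log2 fold change -1.57 ± 0.18, adjusted p = 2.8e-05). As one of the largest falls, *Mafa* was chosen by a rule that required groups without overlap. *Pdx1* and *Nkx6-1*, factors of beta cell identity, fell less, by 0.48 and 0.49 on the log2 scale (adjusted p = 1.1e-08 and 9e-07). *Iapp*, the amyloid peptide stored with insulin, was the marker that was not called, at 28240, 26850, 28550 and 25790 CPM against 28890, 34340, 28770 and 31000 CPM (log2 fold change 0.17 ± 0.07, adjusted p = 0.093).

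The 18 tested transcription factors of the endocrine pancreas were split, with 5 higher and 4 lower (median -0.037). *Isl1* and *Rfx6*, factors of endocrine development, rose by 0.54 and 0.36 (adjusted p = 8.7e-09 and 2.1e-07). Genes of glucose sensing and maturity were mostly lower, 10 of 18 against 2 higher (median -0.27). *Ucn3*, urocortin 3, a peptide of mature beta cells, had 258, 245, 259.9 and 265 CPM against 131, 114, 139 and 126 CPM (log2 fold change -1.01 ± 0.05, adjusted p = 2.1e-14). *Slc2a2*, the glucose transporter GLUT2, had 552, 561, 493 and 515 CPM against 258, 255, 289 and 206 CPM (log2 fold change -1.07 ± 0.09, adjusted p = 2.3e-08). *Ero1lb*, which oxidises disulphide bonds of proinsulin, and *Trpm5*, a cation channel, fell by 1.16 and 1.52 (adjusted p = 7.9e-08 and 5.3e-06). The rises were *Shisal2b*, by 1.14, and the lipid receptor *Gpr119*, by 0.51 (adjusted p = 3.8e-10 and 2.9e-06).

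Granule proteins did not follow the insulin genes as a group, with 5 of 18 higher and 6 lower (median 0.12). *Chgb*, chromogranin B, a core protein of secretory granules, had 2035, 1870, 2104 and 2127 CPM with butyrate and 7911, 9770, 9550 and 12620 CPM with IL-1β (log2 fold change 2.29 ± 0.14, adjusted p = 1.2e-08). The prohormone convertase *Pcsk1* and the amidating enzyme *Pam* also rose, by 0.80 and 0.56 (adjusted p = 1.2e-10 and 1.8e-09). *Slc30a8*, which loads granules with the zinc that insulin crystals need, fell from 698 ± 45.9 to 405 ± 36.05 CPM (SD, n = 4 each; adjusted p = 1.9e-09). A convertase of proinsulin was thus higher while insulin and its zinc transporter were lower.

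The falls were smaller, and *Itgad*, an integrin chain of macrophages below the level set for the largest falls, had the lowest log2 fold change of all called genes (-2.99 ± 0.26, adjusted p = 8.8e-10, 2.98 ± 0.261 to 0.3703 ± 0.197 CPM). Its exons overlap those of the more abundant *Cox6a2*, which also fell, so counts of *Itgad* cannot be assigned with certainty. *Upk3a*, a uroplakin, had 11.7, 12.7, 17.9 and 15.2 CPM with butyrate and 1.38, 1.78, 3.504 and 2.65 CPM with IL-1β (log2 fold change -2.64 ± 0.26, adjusted p = 2.9e-06). *Cox6a2*, the muscle-type isoform of a cytochrome c oxidase subunit, had 38.5, 46.6, 44.1 and 46.1 CPM against 8.0, 8.49, 8.67 and 4.77 CPM (log2 fold change -2.54 ± 0.16, adjusted p = 2.6e-08), with 10.3% of its exonic length shared with *Itgad*. *Kcnf1*, a silent potassium channel subunit, had 29.8, 31.7, 42.2 and 38.8 CPM against 6.25, 6.79, 9.98 and 7.42 CPM (log2 fold change -2.23 ± 0.23, adjusted p = 7.3e-06). The choice of the largest falls required groups that did not overlap. *Plut*, a non-coding RNA transcribed next to *Pdx1*, and *Pcdh8*, a protocadherin, fell by 1.36 and 1.34 (adjusted p = 3.3e-10 and 1.2e-06). *Mafa* and *Trpm5* were also among the largest falls, as were *Brinp2*, *Adam32*, *Gpr137b-ps* and *Rgs5*, with log2 fold changes of -1.65, -1.44, -1.42 and -1.57.

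Markers of the other endocrine cells were mixed or not called. Of 8 alpha cell markers 2 rose and 3 fell (median -0.081). *Gcg* had 21500, 20140, 20450 and 17930 CPM with butyrate and 24780, 24370, 27310 and 24950 CPM with IL-1β (log2 fold change 0.34 ± 0.07, adjusted p = 0.00076), while the arginine transporter *Slc7a2* fell by 0.58 (adjusted p = 7.5e-09). CPM are relative to library sizes scaled by TMM, so the rise of *Gcg* is relative to other genes. Whether the lower share of *Ins2* in the counts contributed to it was not tested. None of the 5 delta cell markers was called, and *Sst* stood at 2418 ± 159.6 and 2640 ± 240.2 CPM (SD, n = 4 each; adjusted p = 0.32). *Ppy* had 2475 ± 287 and 1733 ± 255 CPM, which did not pass the threshold (adjusted p = 0.031). Of 9 duct markers 3 rose, the keratin *Krt8* by 0.40, the mucin *Muc1* by 1.23, and *Spp1*, osteopontin, a secreted protein that macrophages also make, from 45.1, 18.1, 25.8 and 21.9 CPM to 192, 361, 380.5 and 459.7 CPM (log2 fold change 3.66 ± 0.35, adjusted p = 5.3e-06). The duct markers *Krt19* and *Sox9* were not called (adjusted p = 0.94 and 0.86). *Pecam1* was the 1 call of 8 endothelial markers and rose by 0.97 (adjusted p = 7.1e-06), and *Rgs5*, of pericytes, was the 1 call of 10 fibroblast and stellate markers. Of 7 acinar markers 1 fell, *Cela1*, with an adjusted p of 0.0031, and its call was lost without IL-1β plus butyrate replicate 2 (adjusted p = 0.0113). The called shares of the endothelial, fibroblast and acinar lists were 12.5%, 10.0% and 14.3%, under the 14.8% of all genes tested. Neither the 5 Schwann cell markers nor the 2 B cell and 2 neutrophil markers tested held a call.

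Metabolic and stress genes gave smaller and mixed changes. Of 28 antioxidant genes 12 rose and 2 fell (median 0.23). *Gpx1*, a glutathione peroxidase, *Prdx4*, a peroxiredoxin of the endoplasmic reticulum, and *Sod2*, the mitochondrial superoxide dismutase, rose by 0.56, 0.55 and 0.41 (adjusted p = 2.2e-08, 9.1e-07 and 2e-05). In iron and zinc handling 6 of 15 genes rose and 3 fell (median 0.11), with the iron importer *Slc11a2* higher by 0.87 (adjusted p = 1.4e-13). Of 18 glycolysis genes 3 rose and 1 fell, a share of 22.2% beside 14.8% of all genes tested. *Pfkfb3* rose and *Pfkfb2* fell, isoenzymes that make the activator of phosphofructokinase, by 0.86 and 0.66 on the log2 scale (adjusted p = 4.5e-06 and 3.8e-10). In the ER stress list 1 of 24 genes rose and 4 fell (median -0.12), a share of 20.8%. The disulphide isomerase *Pdia6* went from 1228 ± 49.9 to 958 ± 87.7 CPM (adjusted p = 0.00078), and the count of falls was 10 with upper-quartile scaling and 1 with library size as the only scaling. Of 24 genes of sterol and fatty acid synthesis the single call was *Insig1*, lower by 0.29 (adjusted p = 0.00085), a share under the background of 14.8%.

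Of 39 cell cycle genes 2 rose and 3 fell (median -0.011), a share of 12.8% beside 14.8% of all genes tested. The G1 cyclins *Ccnd1* and *Ccnd2* fell by 0.38 and 0.57 (adjusted p = 1.4e-05 and 6.1e-07), and *Ccne1* had 2.86, 3.15, 3.08 and 2.88 CPM against 4.101, 6.196, 4.99 and 5.63 CPM (log2 fold change 0.80 ± 0.15, adjusted p = 0.00013). Of 18 immediate early genes 5 rose and 0 fell, with *Junb* and *Jun* higher by 1.53 and 0.85 (adjusted p = 1.2e-10 and 1.6e-09). Ion channels and pumps were split, with 6 of 30 higher and 4 lower (median 0.026). The sodium channel subunits *Scn3a* and *Scn9a* rose by 0.91 and 0.68, while *Atp2a2*, the calcium pump SERCA2 of the endoplasmic reticulum, fell from 1761 ± 71.3 to 1278 ± 73.0 CPM (adjusted p = 1e-05, 6.2e-11 and 6e-07). Of 27 exocytosis genes 6 rose and 4 fell (median 0.024), among them the synaptotagmin *Syt11*, higher by 0.59 (adjusted p = 2.5e-11).

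Matrix genes and proteases rose in 10 of 31 cases and fell in 1 (median 0.23). *Lamb3*, a laminin chain of epithelial basement membranes, had 0.201, 0.711, 0.993 and 0.473 CPM against 8.77, 10.1, 9.197 and 11.8 CPM (log2 fold change 4.06 ± 0.25, adjusted p = 1.5e-10), and the collagenase *Mmp13* and the urokinase receptor *Plaur* rose by 2.20 and 1.41 (adjusted p = 3.7e-05 and 3.9e-06). Of 16 genes that beta cells normally keep silent, 5 rose and 0 fell, with *Igfbp4*, a binding protein of insulin-like growth factors, at 3.21, 3.46, 3.605 and 3.61 CPM against 21.6, 19.6, 29.2 and 20.9 CPM (log2 fold change 2.71 ± 0.14, adjusted p = 4.6e-12). Of 12 genes linked to dedifferentiation, 3 rose and 1 fell. *Serpina7*, thyroxine-binding globulin, rose by 2.98 and *Cd81* by 0.44 (adjusted p = 8e-07 and 1.5e-06). *Aldh1a3*, a retinaldehyde dehydrogenase of dedifferentiated beta cells, had 49.8, 42.95, 77.96 and 98.7 CPM against 32.1, 40.95, 40.4 and 36.5 CPM and was not called (adjusted p = 0.028).

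Receptors and enzymes for short chain fatty acids were examined because every library here had butyrate in its medium. Of 22 genes 2 rose and 4 fell (median -0.079), a share of 27.3% beside 14.8% of all genes tested. *Ffar3*, a receptor for butyrate, went from 28.3, 23.9, 25.03 and 23.96 CPM to 19.9, 17.8, 18.2 and 17.5 CPM (log2 fold change -0.46 ± 0.07, adjusted p = 4.5e-06). *Oxct1*, which activates ketone bodies, and the histone deacetylase *Hdac4* fell by 0.29 and 0.36 (adjusted p = 8.4e-05 and 0.00036), while *Acads*, which oxidises butyryl-CoA, and *Hdac7* rose by 0.39 and 0.42 (adjusted p = 2.7e-05 and 3.4e-05). Of 9 solute carriers that the study drew from these samples, and which are therefore no independent evidence of a direction, 4 fell and 0 rose, and with library size as the only scaling 0 fell.

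Of the other genes that the study singles out in these islets, *Gpx2*, a glutathione peroxidase of epithelia, had 6.08, 6.79, 7.21 and 6.62 CPM with butyrate and 11.8, 12.5, 10.6 and 10.8 CPM with IL-1β (log2 fold change 0.78 ± 0.16, adjusted p = 0.0022). *Sstr5*, a somatostatin receptor, stood at 0.117 ± 0.0377 and 0.373 ± 0.08896 CPM (SD, n = 4 each), a difference that missed the threshold (log2 fold change 1.61 ± 0.49, adjusted p = 0.017). *Ndrg2*, *Lingo3* and *Lama5* were not called either, with log2 fold changes of 0.09 ± 0.23, -0.34 ± 0.17 and 0.08 ± 0.08 (adjusted p = 0.85, 0.18 and 0.55). For the laminin chain *Lama5* the 4 butyrate libraries, 21.1, 25.2, 20.6 and 25.2 CPM, and the 4 with IL-1β, 24.4, 23.1, 23.2 and 26.8 CPM, overlapped.

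To ask which of these responses differed with butyrate, the same IL-1β was compared with control islets, and the difference between both responses was tested. Without butyrate 3311 genes were called (17.8%), of which 2087 rose (11.2%) and 1224 fell (6.59%). Same-numbered libraries of this comparison deviated together, and with the number as a block 4537 genes were called, of which 1951 fell. Adjusted p of this comparison and of the difference come from the fit without the block unless another fit is named. Of the 2747 genes called in butyrate, 2117 (77.1%) were called in the same direction without it, which was 63.9% of the calls without butyrate, and 2 were called in opposite directions. Over the genes called in both, the median absolute log2 fold change was 0.518 in butyrate and 0.536 without it. Over the 3311 genes called without butyrate it was 0.364 in butyrate and 0.464 without it, with the smaller size in butyrate for 2404. Over the 2747 called in butyrate it was 0.458 and 0.431, with the smaller size in butyrate for 1222. Each of these last 2 sets was chosen by one of the contrasts set side by side. Of the 628 genes called in butyrate and not without it, 593 had the same sign there and the difference was called in 3, and of the 1192 called without butyrate and not with it, 1147 had the same sign and the difference was called in 5. The difference itself was called in 18 of 18587 genes (0.0968%), 8 with a higher log2 fold change in butyrate (0.043%) and 10 with a lower one (0.0538%). With the replicate number as a block it was called in 132 genes (60 and 72), among them 17 of the 18. Its median SE was 0.141 (log2), and a call at this threshold needed a difference of several SE, so smaller differences could go unseen.

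**Figure D4:**
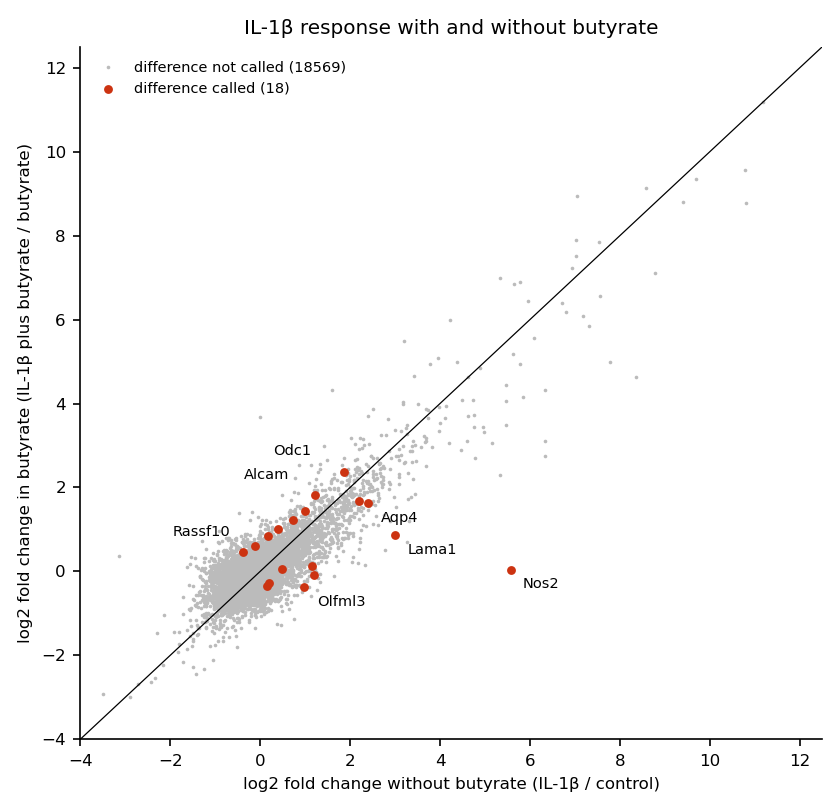
Each point is 1 of 18587 genes, with its log2 fold change of IL-1β over control on the x axis and of IL-1β plus butyrate over butyrate on the y axis; the line marks equal responses. Most genes lie along the line, and the 18 genes with a called difference (red) include *Nos2* far to the right, at 5.57 without butyrate and 0.04 with it.

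*Nos2* had the largest difference by size. It had 0, 0, 0.0955 and 0.0428 CPM in control islets and 1.76, 1.27, 2.28 and 2.09 CPM with IL-1β alone, where the groups did not overlap. These were 3 counts in all against 162, a ratio of 55.8 (95% interval for counting error only, 18.7 to 273) with an adjusted p of 1e-08. With the overlapping groups in butyrate, 17 counts against 19 in all, the difference was -5.53 ± 0.94 (log2, adjusted p = 0.0044). The call was kept in 11 of 16 fits that left out 1 library. The largest adjusted p, 0.081, came without butyrate replicate 1, the library in which *Nos2* was highest in its group at 0.502 CPM, and DESeq2 gave the gene no adjusted p. *Ptgs2* had log2 fold changes of 2.78 without butyrate (adjusted p = 4.1e-06) and 0.51 with it, and its difference was not called (-2.27 ± 0.56, adjusted p = 0.11), except with the replicate number as a block or with no filter on low counts (adjusted p = 0.0084 and 0.00025).

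*Lama1* (ENSMUSG00000032796, chromosome 17, 67697259 to 67822647, plus strand), a laminin chain of basement membranes, rose from 1.26, 1.58, 1.15 and 1.33 CPM in control islets to 13.5, 10.3, 9.64 and 9.53 CPM with IL-1β alone. In butyrate it had 1.105, 1.42, 1.202 and 1.46 CPM and, with IL-1β added, 2.802, 2.89, 1.53 and 2.31 CPM, where all 4 libraries were above the butyrate group but below every library with IL-1β alone. The log2 fold change was 0.87 in butyrate and 2.998 without it, a difference of -2.13 ± 0.27 (adjusted p = 0.00015) that was called in all 16 fits without 1 library. Its response in butyrate alone lost its call without IL-1β plus butyrate replicate 1 or 2 (adjusted p of up to 0.0109).

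In 4 more genes the response to IL-1β was called without butyrate and not with it. *Olfml3*, a secreted olfactomedin-like protein, had 1.91, 2.42, 2.53 and 2.44 CPM in control islets, 3.57, 4.58, 5.55 and 4.73 CPM with IL-1β, 4.42, 5.996, 4.34 and 4.77 CPM with butyrate and 4.39, 3.01, 4.07 and 3.52 CPM with both (difference -1.37 ± 0.21, adjusted p = 0.0014). *Ramp1*, a partner of the receptor for the neuropeptide CGRP, and *Dnah11*, a dynein of cilia, rose to 5.61 ± 1.18 and 10.9 ± 1.21 CPM with IL-1β alone and had 2.79 ± 0.269 and 4.85 ± 0.426 CPM with both (SD, n = 4 each; differences -1.27 ± 0.22 and -1.02 ± 0.16, adjusted p = 0.0045 and 0.0019). *Add3*, an adducin of the membrane skeleton, had 50.05, 56.9, 57.7 and 53.7 CPM with IL-1β alone and 41.5, 42.1, 42.9 and 40.9 CPM with both (difference -0.42 ± 0.07, adjusted p = 0.0044). For *Olfml3* the range of the butyrate libraries overlapped that of the libraries with IL-1β alone.

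*Aqp4*, a water channel, and *Itgb8*, an integrin chain that activates TGF-β, rose under both conditions and less in butyrate. *Itgb8* had 19.04, 16.8, 18.8 and 19.1 CPM in control islets and 86.03, 74.8, 88.8 and 89.6 CPM with IL-1β, against 17.6, 18.9, 16.7 and 18.4 CPM with butyrate and 60.7, 58.2, 57.2 and 52.05 CPM with both (difference -0.53 ± 0.09, adjusted p = 0.0044). For *Aqp4* the difference was -0.78 ± 0.13 (adjusted p = 0.0073). *Bace2*, a protease that sheds proteins from beta cells, was lower with IL-1β in butyrate (log2 fold change -0.27 ± 0.05) and higher without it (0.19 ± 0.05; difference -0.46 ± 0.07, adjusted p = 0.00066). *Phactr1*, a regulator of actin, fell in butyrate by 0.34 on the log2 scale and was not called without it (log2 fold change 0.16, adjusted p = 0.053; difference -0.50 ± 0.09, adjusted p = 0.0057).

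The 8 genes with a higher log2 fold change in butyrate had differences of 0.44 to 0.84. *Alcam*, an adhesion molecule, had 149.9, 132, 134 and 126 CPM in control islets and 336, 303, 309.5 and 314 CPM with IL-1β, against 124, 113, 108 and 112 CPM with butyrate and 404, 419, 384 and 401 CPM with both (difference 0.59 ± 0.08, adjusted p = 0.00015). *Odc1*, the first enzyme of polyamine synthesis, *Mat1a*, which makes S-adenosylmethionine, and *Morc3*, a nuclear ATPase, rose under both conditions and more in butyrate (differences 0.52 ± 0.09, 0.44 ± 0.07 and 0.50 ± 0.08, adjusted p = 0.0098, 0.0012 and 0.0012). The difference of *Odc1* was not called with the replicate block or with upper-quartile scaling (adjusted p = 0.019 and 0.015). For *Mat1a* the levels with IL-1β were 162 ± 8.35 CPM alone and 146 ± 4.86 CPM in butyrate, while the levels without IL-1β were 54.4 ± 0.873 CPM with butyrate and 81.7 ± 4.28 CPM in control islets (SD, n = 4 each).

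In *Cadps2*, a priming factor of dense-core granules, *St3gal1*, a sialyltransferase, and *Tmem255a*, a membrane protein, all 4 butyrate libraries also lay below all 4 of control islets. *St3gal1* had 28.2, 27.4, 31.01 and 27.9 CPM in control islets and 30.1, 31.9, 33.7 and 33.4 CPM with IL-1β, against 9.49, 9.37, 10.2 and 9.12 CPM with butyrate and 16.6, 17.7, 16.99 and 16.7 CPM with both (difference 0.66 ± 0.09, adjusted p = 0.00016). *Cadps2* and *Tmem255a* had 13.9 ± 1.499 and 26.6 ± 1.64 CPM with butyrate against 26.8 ± 1.57 and 47.4 ± 3.68 CPM in control islets (differences 0.63 ± 0.10 and 0.74 ± 0.09, adjusted p = 0.0012 and 9.5e-05). *Rassf10*, a scaffold protein, rose in butyrate by 0.45 and fell without it by 0.38 on the log2 scale (difference 0.84 ± 0.12, adjusted p = 0.00066). *Rassf10* and *Bace2* were the 2 genes called in opposite directions. The rise of *Bace2* without butyrate was not called without IL-1β replicate 2 or control replicates 3 or 4 (adjusted p = 0.012, 0.016 and 0.010).

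**Figure D5:**
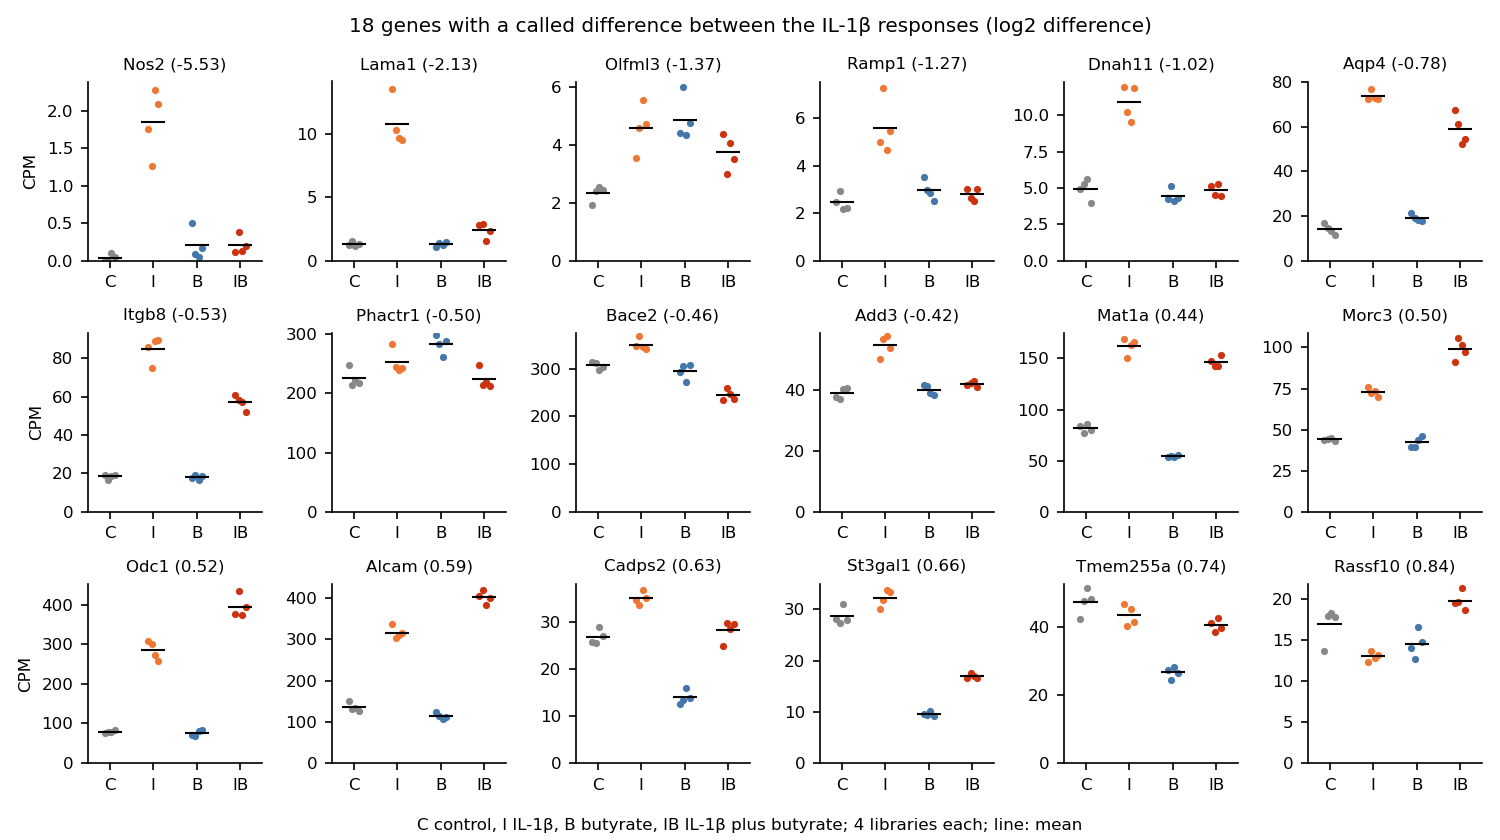
CPM of the 18 genes with a called difference, with 1 point for each of the 4 libraries of control (C), IL-1β (I), butyrate (B) and IL-1β plus butyrate (IB), a line for the group mean and the log2 difference between the responses in each title. *Nos2* and *Lama1* are high in the IL-1β group, while *Mat1a*, *Cadps2*, *St3gal1* and *Tmem255a* are lower in the butyrate group than in control islets.

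Single libraries weighed on this count, which was 11 without butyrate replicate 1 and 12 to 25 without any other library. Of the 18 genes, 10 were called in each of the 16 fits without 1 library, namely *Alcam*, *Bace2*, *Cadps2*, *Lama1*, *Mat1a*, *Morc3*, *Olfml3*, *Rassf10*, *St3gal1* and *Tmem255a*. *Dnah11* was called in 15 of them, *Itgb8* in 12, *Add3* and *Nos2* in 11, *Ramp1* in 10, *Phactr1* in 6, *Aqp4* in 5 and *Odc1* in 4. With library size as the only scaling *Add3*, *Itgb8* and *Phactr1* were not called (adjusted p = 0.027, 0.038 and 0.014).

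Of the 24 acute phase genes tested, 21 rose in butyrate and 20 without it, of the interferon-inducible GTPases 9 and 13, of the enzymes of nitric oxide, prostaglandin and superoxide 8 and 15, and the difference was called in these lists for *Nos2* alone, or with the replicate block for 3 genes of the last list. Of the beta cell markers 8 fell in butyrate and 7 without it, with 0 called differences, or 2 with the block. For *Mafa*, which fell from 396 ± 30.2 to 222 ± 36.6 CPM without butyrate (SD, n = 4 each; log2 fold change -0.84 ± 0.18, adjusted p = 0.0034), the difference was -0.74 ± 0.25 (adjusted p = 0.46). That fall without butyrate was not called in 4 of 16 fits, those without IL-1β replicate 3 or 4 or control replicate 1 or 2 (adjusted p = 0.012, 0.013, 0.011 and 0.010). *G6pc2*, a glucose-6-phosphatase of beta cells, had a log2 fold change of -0.33 in butyrate and 0.04 without it, and its difference also missed the threshold (-0.36 ± 0.07, adjusted p = 0.017), but was called with the block, DESeq2, no filter on low counts, either other scaling, and without IL-1β plus butyrate replicate 2 or IL-1β replicate 4 (adjusted p = 1.6e-05 to 0.0093). The other of these 2 markers was *Ins1* (difference -0.39 with the block, adjusted p = 0.0018), also called with DESeq2 and with no filter. In the cell cycle list 3 genes fell in butyrate and 13 without it, with 0 called differences, or 3 with the block.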

How the data were processed

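RNA was isolated from 500 mouse islets per library, and single-end libraries were made with the NEBNext Ultra II kit, which does not mark strand, and sequenced on a HiSeq 4000 instrument. The authors mapped the reads with STAR 2.5.3a to GRCm38 (mm10) and deposited raw read counts per Ensembl gene, with no normalization. The annotation release, the strand setting and read filters are not given in the sources used here. The submitters' processing notes also name bcl2fastq 2.19.1, FastQC 0.11.7, MultiQC 1.7 and DESeq2.

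Counts of all 16 libraries (18635943 to 25955943 per library) were fitted in R 4.3.3 with edgeR 4.0.16 (robust quasi-likelihood test, TMM scaling, filterByExpr, 1 model for the 4 conditions), with Benjamini-Hochberg adjustment over 18587 genes. A gene was called at an adjusted p under 0.01. Standard errors are the absolute log2 fold change divided by the square root of the F statistic of its test, and are thus approximate. For genes with few counts they also depend on the prior count of the fit. CPM came from the same scaling. The contrasts were IL-1β plus butyrate against butyrate, IL-1β against control, and their difference. The scripts were tested on simulated data. Alternatives were DESeq2 1.42.0, upper-quartile scaling, library size as the only scaling, no filter, only the libraries compared, the replicate number as a block, a threshold of 0.05 and each library left out. Samples were grouped by their labels, with 4 per condition, and the study calls them biological replicates. No pair of libraries of a group agreed within sampling noise (chi-square per gene 3.33 to 8.84 over genes whose pair of counts summed to 20 or more), so none was counted as a repeat. Same-numbered libraries of control and IL-1β islets deviated together (r = 0.487, 0.399, 0.274 and 0.304), which pairs that comparison by the rule of every r over 0.1, while butyrate replicate 2 missed it in the comparison within butyrate. Intervals and floors of 3 counts cover counting error only.

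Symbols came from the GENCODE M21 annotation (52489 of 52636 gene identifiers matched, and 10560 genes had no count). Without strand, reads of overlapping genes cannot be told apart. Besides those named with *Cfb* and *Cox6a2*, an overlap of over 10% of exonic length with another gene was found for *Spp1*, *Icam1*, *Tmem255a*, *Cxcl16*, *Tapbp*, *Erap1*, *Ccnd1*, *Pfkfb2*, *Oxct1* and *Hdac4*, among others. The members and gene lists were chosen with earlier results of these data known. Genes were named as the 12 largest rises and falls whose average log2 CPM was 1 or more and whose groups did not overlap, up to 10 differences each way, up to 5 genes per list in order of p (any gene of lists with at most 12 tested), and genes the study names, leaving out predicted genes in the first 2 sets. Some genes that this rule takes are not reported here. *Itgad* and the members of small counts that this rule did not take were named after their values were seen. Promoter sequences were those of RefSeq (GRCm38.p6).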

Additional observations from a re-analysis of the deposited data

Results flagged for a closer look

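In 18 genes the log2 fold change for IL-1β differed between islets with and without butyrate (edgeR quasi-likelihood test of the difference, adjusted p under 0.01). It was lower in butyrate for *Nos2* (-5.53), *Lama1* (-2.13), *Olfml3* (-1.37), *Ramp1* (-1.27), *Dnah11* (-1.02), *Aqp4* (-0.78), *Itgb8* (-0.53), *Phactr1* (-0.50), *Bace2* (-0.46) and *Add3* (-0.42). It was higher in butyrate for *Mat1a* (0.44), *Morc3* (0.50), *Odc1* (0.52), *Alcam* (0.59), *Cadps2* (0.63), *St3gal1* (0.66), *Tmem255a* (0.74) and *Rassf10* (0.84). With the replicate number as a block, 17 of these 18 were called, and 132 genes in all.

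For the reported genes, 332 groups of 4 libraries were checked for a library far from the other 3 by Dixon's criterion, and 23 groups held one, where chance gives about 1 in 20. In the butyrate group, replicate 1 stood apart above the others for *Steap4* (2.86 CPM), *Ass1* (2.96 CPM), *Cxcl1* (1.21 CPM), *Ptgs2* (1.46 CPM), *Slc6a14* (0.502 CPM), *Serpina3f* (0.100 CPM) and *Serpina3i* (0.151 CPM). The last 2 values rest on 3 counts or fewer. It also stood apart for *Tapbp* (114 CPM), and butyrate replicate 2 did for *Il18rap* (0.0444 CPM), *Lck* (2.58 CPM) and *Slc7a2* (702 CPM). In the IL-1β plus butyrate group, replicate 1 stood apart for *B2m* (34.4 CPM), *Il18r1* (2.68 CPM), *Rsad2* (9.10 CPM) and *Sst* (2998 CPM), and replicate 2 for *Cxcl1* (13.6 CPM), *Psma6* (86.5 CPM) and *Serpina3e-ps* (16.3 CPM). Replicate 3 stood apart for *Ndrg2* (1.53 CPM), *Psmb10* (13.7 CPM) and *Ptger4* (2.80 CPM), and replicate 4 for *Adam32* (1.45 CPM) and *Ppy* (1354 CPM).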

How the results depend on the processing

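In butyrate, 2747 genes were called, and leaving out 1 library gave 2283 to 2915 (1559 to 1898 higher, 724 to 1018 lower). Without butyrate the range was 2758 to 3338 (1819 to 2217 higher, 896 to 1194 lower), and for the difference 11 to 25 (7 to 12 higher, 4 to 14 lower). With library size as the only scaling 3153 genes were higher and 451 lower in butyrate, and 708 were lower without it. Upper-quartile scaling gave 1420 lower in butyrate, and a threshold of 0.05 gave 1556 lower in butyrate and 2128 without. The median log2 fold change of all genes in butyrate was -0.009 with TMM, -0.045 with upper-quartile scaling and 0.088 with library size alone. The difference was called in 52 genes by DESeq2 (23 higher, 29 lower), in 95 with no filter on low counts (52 and 43) and in 39 at a threshold of 0.05 (19 and 20). The causes of these shifts were not tested. No result changed direction among the called ones under any alternative run.

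The labels do not tie the replicate numbers to a shared batch. The study speaks of 4 independent experiments, without saying that the replicate numbers mark them. The deviations of same-numbered libraries correlated at 0.315, 0.078, 0.2 and 0.283 between the groups with butyrate, and at 0.303, 0.045, 0.152 and 0.301 between butyrate and IL-1β, so replicate 2 fell under 0.1 in both. In the 4 other pairs of groups every correlation was over 0.1, the lowest being 0.113 and the highest 0.487. All same-numbered correlations were positive, but not every sample correlated best with its own number. Replicate 3 of IL-1β plus butyrate, for example, correlated at 0.222 with control replicate 3 and at 0.24 with control replicate 4. With that number as a block in the model, 3750 genes were called in butyrate (2343 higher, 1407 lower), including 2746 of the 2747, 4537 without it (2586 and 1951), and 132 for the difference (60 and 72). Depth limits low genes such as *Nos2*, with 17 and 19 counts in the groups with butyrate.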
